A study of Rattus norvegicus with 9 samples.

Results

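Acute heat stress in the hearts of reacclimated rats was examined by comparing 2 of the 9 samples in the series, chosen by their titles. Both groups had lived at 34 °C for 1 month, then at 24 °C for 1 month, and then again at 34 °C for 2 days, the last step being called reacclimation. One group was taken without further treatment. The other was exposed to 41 °C for 2 h and recovered at 24 °C for 1 h before the left ventricle was removed. Strain, sex and age are not stated in the labels. Total RNA of individual animals was combined into 3 pools per group, with 6 animals stated, labelled with a radioactive nucleotide and hybridised by a Clontech protocol. Each group is deposited as 1 value per array row, so the animals within a pool cannot be separated and no spread within a group can be computed.

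Heat acclimation develops over days to weeks of living in moderate heat, during which the heart changes its contraction, its use of energy and its store of protective proteins. Acute heat stress acts within minutes to hours through the heat shock response, in which the transcription factor HSF1 switches on chaperones that refold damaged proteins. After acclimation has been lost, a return to heat is known to restore the acclimated state faster than the first exposure did, which has been called acclimation memory. The comparison here asks what acute heat stress adds once that return has taken place.

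All 87 rows of the deposited tables enter the comparison. Neither the files nor the reference gene table name a gene for any row (0 of 87 names matched), so each row keeps the name it has on the array and no role can be attached to it. Heart markers and chaperones could not be looked up for the same reason, and the labelled tissue was not checked against them. In bulk tissue, fewer cells of a type and less RNA per cell cannot be told apart. The main values are log2 ratios to the untreated control, formed from geometric means and normalized by the authors, per the labels. The difference between the stressed and the unstressed reacclimated group is the first ratio minus the second, so the control cancels. A row is called higher or lower at 2-fold or more, a log2 difference of at least 1.00. With 1 value per group there is no test of a single row, and sizes are descriptions. Each row was also looked up in a second deposited table of intensities, in which each sample was scaled to its median before log2 differences were taken. The median intensity was 3820 in the unstressed and 4891 in the stressed group. In the unstressed group 6 rows had an intensity below 0, and in the stressed group none of the 87 did. The value -645.3 was listed for 3 of those 6 rows (849R, A059 and A061), and 166.0 was listed for 2 rows (A059 and A061) of the stressed group.

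Heat stress left 4 of the 87 rows higher (4.60% of all rows) and 9 lower (10.3%) in reacclimated rats, and 74 rows stayed within 2-fold. The median difference over all rows was -0.18, with quartiles of -0.59 and 0.20. The lowest difference was -2.26 and the highest 2.19. In 47 rows the difference was smaller than 0.5 in size. After each group was centred on its own median, 5 rows were higher (5.75%) and 8 lower (9.20%). Intensities gave another balance, with 14 rows higher (17.3%) and 8 lower (9.88%) of the 81 rows above 0 in both groups. The rows nearest to the 2-fold limit were R134 (-1.08) and R635 (1.13) beyond it and A057 (-0.90) and A012 (0.91) short of it. After centring, R134 fell short of the limit (-0.98) and A012 passed it (1.02).

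**Figure D1:**
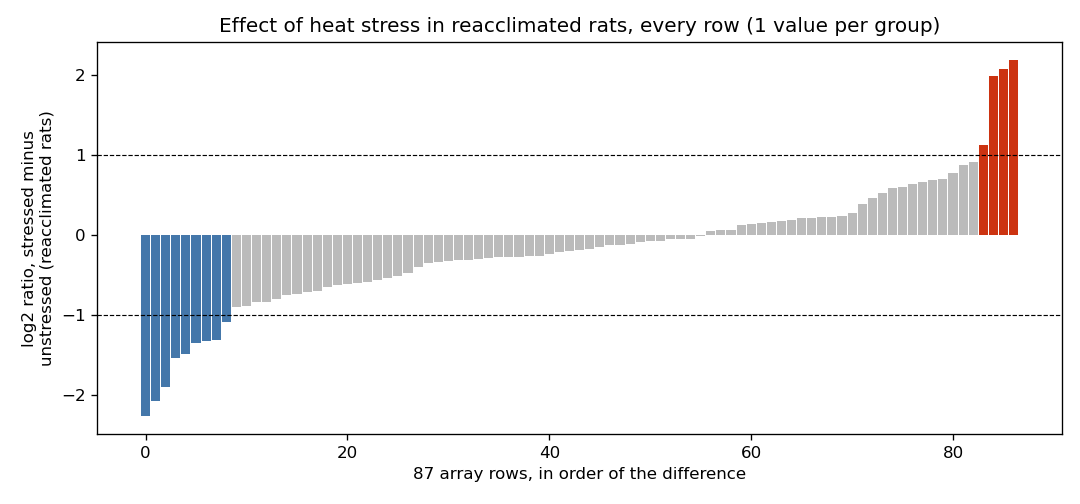
Difference in log2 ratio between the heat-stressed and the unstressed reacclimated group for each of the 87 array rows, in ascending order, with dashed lines at 2-fold. Red bars are the 4 higher rows and blue bars the 9 lower rows. The 3 highest rows stand well apart from the fourth, R635, at 1.13.

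The 3 rows at the top were each about 4-fold higher and close to each other in size. Row A044 went from a log2 ratio of 0.15 in unstressed to 2.34 in stressed reacclimated rats, a 4.55-fold difference. Its intensity went from 4659 to 14448. Row R609 went from -0.40 to 1.68, a 4.23-fold difference, with intensities of 6439 and 20776. Row 755R went from 0.86 to 2.85, a 3.97-fold difference, with intensities of 3858 and 12328. In scaled intensity the log2 differences were 1.27 for A044, 1.32 for R609 and 1.31 for 755R. All 3 rows therefore exceeded 2-fold in both tables, with a smaller size in the second. In their log2 ratios all 3 started within 2-fold of the control, although for R609 the control itself is listed at -3.32 and its control intensity was 1282, so its place against the control is uncertain. In log2 ratio, row 755R started highest of them and reached the highest ratio of all 87 rows in the stressed group. Scaled intensity placed it otherwise. There 755R started lowest of the 3 (-0.46, against -0.19 for A044 and 0.28 for R609), and its stressed value of 0.85 lay below the 1.31 of the control.

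The fourth higher row, R635, moved towards the control rather than away from it. It stood at -1.92 in unstressed and at -0.80 in stressed reacclimated rats, a 2.18-fold difference, with intensities of 4898 and 8380. In scaled intensity its difference was 0.41, short of 2-fold. Rows that came next upward were A012 (0.91), S72R (0.87), 635R (0.78), R482 (0.71), S62R (0.69) and R364 (0.67). Of these 6, S72R, 635R, R482 and S62R were above 2-fold in scaled intensity, at 1.35, 1.52, 1.98 and 3.04. Row A012 was at 0.43 and row R364 at 0.66 there.

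Among the lower rows, A017 and R040 had the largest differences with the same direction in both tables. Row A017 went from 1.76 to -0.31, a 4.21-fold difference, and its intensity from 4761 to 1726. Row R040 went from 0.42 to -1.48, a 3.73-fold difference, and its intensity from 4358 to 2358. Row A066 went from 0.80 to -0.68, a 2.80-fold difference, and its intensity from 1665 to 1020. These 3 rows were also at least 2-fold lower in scaled intensity, at -1.83 for A017, -1.25 for R040 and -1.07 for A066. Row R532 was the only other such row, with log2 ratios of 0.48 and -0.85 and intensities of 3337 and 763.5, a scaled difference of -2.49.

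The remaining 5 lower rows had less support in the second table. Row R590 was listed furthest below, from 1.07 to -1.19, a 4.80-fold difference. Its intensity nevertheless went up from 1495 to 2447, which is 0.35 after scaling. Row R011 was the second with opposite signs. It was listed at -1.30 and -2.84, while its intensities were 46.4 and 193.2, the lowest of the 13 rows and a scaled difference of 1.69. Row A070 went from 0.23 to -1.12 and row R172 from 1.15 to -0.16, with scaled differences of -0.66 and -0.68. Row R134 went from 0.52 to -0.56, with a scaled difference of -0.05. Of the 9 lower rows, 6 belonged to the 25% of rows with the lowest mean intensity over the series (R590, R011, A070, R532, R172 and R134), and none of the 4 higher rows did. Without those 25% of the rows 4 were higher and 3 lower, the 3 being A017, R040 and A066.

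**Figure D2:**
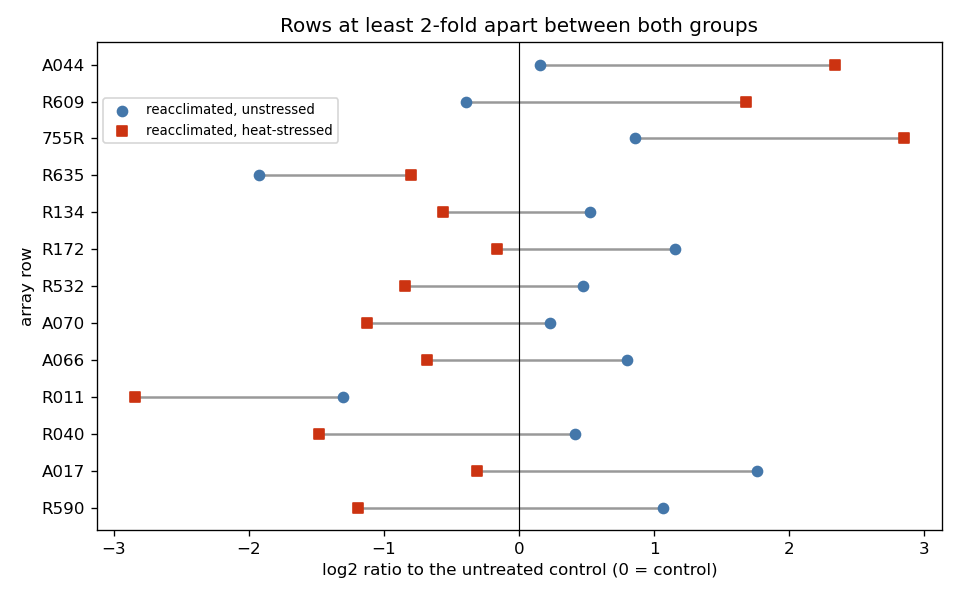
Log2 ratio to the untreated control of the 13 rows at least 2-fold apart, in unstressed (blue circles) and heat-stressed (red squares) reacclimated rats, 1 value per group. Of the 9 lower rows 8 lay above the control before stress and all 9 below it afterwards. Over all rows the median log2 ratio was 0.41 before and 0.30 after stress. Picking rows by the stressed minus unstressed difference favours a high start and a low end among the lower rows.

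Placed against the control, 8 of the 9 lower rows shared a starting side. They lay above the control before stress, R011 being the exception, and after stress all 9 lay below it, 4 of them by at least 2-fold (R590, R040, R011 and A070). Of all 87 rows the median log2 ratio was 0.41 before and 0.30 after stress, so the 87 rows as a set also stood above the control in both groups. In the unstressed group 24 rows were at least 2-fold above the control (27.6%) and 9 below (10.3%). In the stressed group the counts were 26 (29.9%) and 13 (14.9%). Of the 24 rows above, 18 were still at least 2-fold above after stress, 5 lay within 2-fold and 1, R590, lay at least 2-fold below. Of the 9 rows below, 6 stayed there and 3 came within 2-fold. The lower rows were picked by the stressed minus unstressed difference, which favours a high start and a low end. The same reacclimated sample enters both the starting level and the difference, so an error in it moves both in opposite directions.

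**Figure D3:**
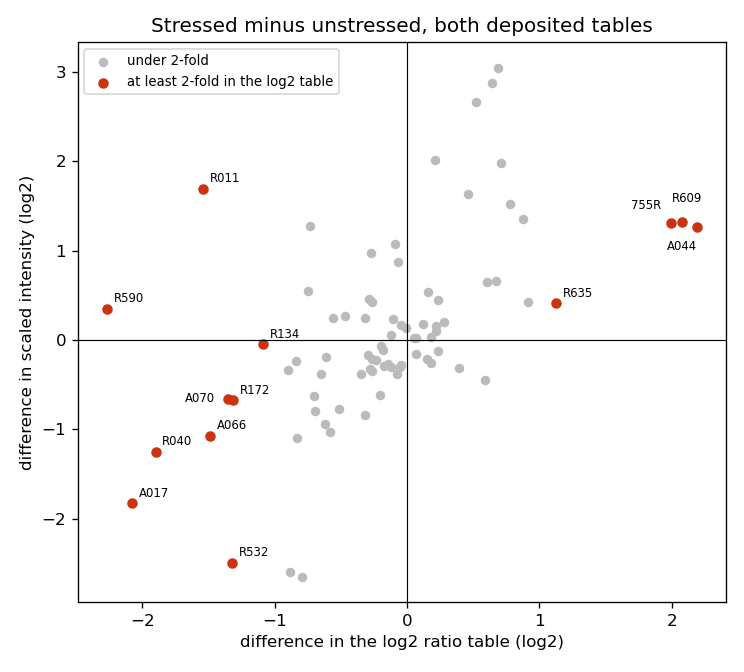
Stressed minus unstressed log2 difference in reacclimated rats in the log2 ratio table (horizontal) and in the scaled intensities (vertical), for the 81 rows with intensities above 0 in both groups. The 13 rows at least 2-fold apart in the log2 table are red and named, and R590 and R011 lie in the quadrant of opposite signs.

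Both tables gave the same sign in 59 of 81 rows. Across rows the correlation of their differences was r = 0.563 (Spearman's rho 0.600), as a description over rows of the same samples, and r = 0.666 without the rows of lowest intensity (65 rows). Of the 13 rows called in the log2 table, 11 kept their sign and 7 were at least 2-fold in the same direction in both (3 higher and 4 lower). Differences were smaller among the rows of stronger signal. The median size of the log2 difference was, over 4 bins of rows, 0.59 in that with the lowest mean intensity over both groups, 0.71 in the next, 0.27 in the third and 0.19 in the highest.

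The same acute stress was applied in 3 other states, each with its own unstressed group: rats that were not acclimated (unstressed group: the untreated control), rats kept at 34 °C for 2 days, and rats kept at 34 °C for 1 month. None of these samples enters the reacclimated difference. At 2-fold, stress left 5 rows higher (5.75%) and 9 lower (10.3%) without acclimation. It left 8 higher (9.20%) and 29 lower (33.3%) after 2 d acclimation, and 7 higher (8.05%) and 17 lower (19.5%) after 1 mo acclimation. With groups centred the counts were 7 higher (8.05%) and 9 lower (10.3%) without acclimation, 12 (13.8%) and 8 (9.20%) after 2 d, and 7 (8.05%) and 15 (17.2%) after 1 mo, so that the 2 d state then had as many lower rows as the reacclimated one. As a measure of overall size, the root mean square over all 87 differences was 0.79 after reacclimation, against 1.14 without acclimation, 1.11 after 2 d and 1.00 after 1 mo. It was 1.05 after reacclimation in scaled intensity, against 1.21, 1.97 and 1.29, over unequal numbers of rows (81, 76, 66 and 87). In the log2 table the 1.14 without acclimation includes 6 rows whose stressed ratio was read as a floor. Their differences ran from -4.06 (R198) to -2.87 (A017). The 1.11 after 2 d includes 1 row with an unstressed ratio read likewise (A061, difference 3.30). Sizes without these rows were not computed, so the log2 values do not settle which state had the smallest response. None of the sizes has an error that could be estimated, and whether they differ was not tested.

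Row by row, the stress response after reacclimation was set against the mean of the other 3 states with limma, taking the spread between those 3 states as error and assuming that the reacclimated state varies alike. No row passed at an adjusted p of 0.05 (0 of 87, limma with Benjamini-Hochberg adjustment, lowest adjusted p = 0.983), and 1 row, S62R, had an unadjusted p under 0.05. The spread between the other states was wide, with SEs of the difference between 0.66 for R532 and 1.59 for R590 among the 13 called rows. A real difference of 2-fold could therefore go uncalled, and a p that misses the threshold does not show that the states respond alike.

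In the log2 table, without centring, 20 of all 87 rows had the same sign on heat stress in all 4 states, both directions counted together. The 3 top rows were above 0 in all 4 states in that table, with and without centring. In scaled intensity this held for R609, while A044 (-0.05) and 755R (-1.32) were below 0 without acclimation. In row A044 the log2 ratio was 0.89 in stressed rats without acclimation, 0.26 and 1.98 before and after stress with 2 d acclimation, -0.16 and 2.18 with 1 mo acclimation, and 0.75 in deacclimated rats. Set beside 0.15 and 2.34 after reacclimation, A044 was above the control in all 4 stressed groups, below 2-fold without acclimation. With groups centred its stressed ratio was 2.04 after reacclimation, 2.24 after 2 d and 2.17 after 1 mo, so the order of these 3 depends on the scaling. Its difference after reacclimation was 0.54 ± 0.80 (SE) above the mean of the other states (95% interval -1.42 to 2.49, limma adjusted p = 0.983). In scaled intensity the departure of A044 had the opposite sign (-0.74).

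Row R609 had differences of 2.99, 2.80 and 1.76 in the other 3 states, in the order not acclimated, 2 d and 1 mo, against 2.08 after reacclimation. Its stressed log2 ratios were 2.99, 2.94, 2.62 and, after reacclimation, 1.68, the lowest of the 4. Its unstressed ratios were 0.14 with 2 d acclimation, 0.86 with 1 mo acclimation and -0.40 after reacclimation. The control value of R609 is listed at -3.32 and not at 0. It cancels after reacclimation but leaves the difference without acclimation uncertain. The departure of R609 from the mean of the other states was -0.44 ± 0.77 (SE, interval -2.33 to 1.45, limma adjusted p = 0.983). In scaled intensity the departure of R609 was larger, at -2.25. Its scaled differences were 4.46, 3.57 and 2.68 in the other states, against 1.32 after reacclimation.

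Row 755R differed more between states. Stress changed its log2 ratio by 1.74 without acclimation, 0.85 after 2 d, 0.25 after 1 mo and 1.99 after reacclimation. Its stressed ratio of 2.85 after reacclimation stood beside 2.20 after 2 d and 1.05 after 1 mo. In scaled intensity this order did not hold, as the differences of 755R after 2 d and after 1 mo both exceeded the 1.31 after reacclimation. Against the mean of the other states the log2 difference was 1.04 ± 0.81 (SE, interval -0.93 to 3.02, limma adjusted p = 0.983). Over the 9 listed values, the rows whose profile was most like that of A044 were 755R (r = 0.739), A075 (r = 0.705) and R609 (r = 0.679). Row A075 stood at 0.96 and 1.56 in reacclimated rats, a difference of 0.61.

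**Figure D4:**
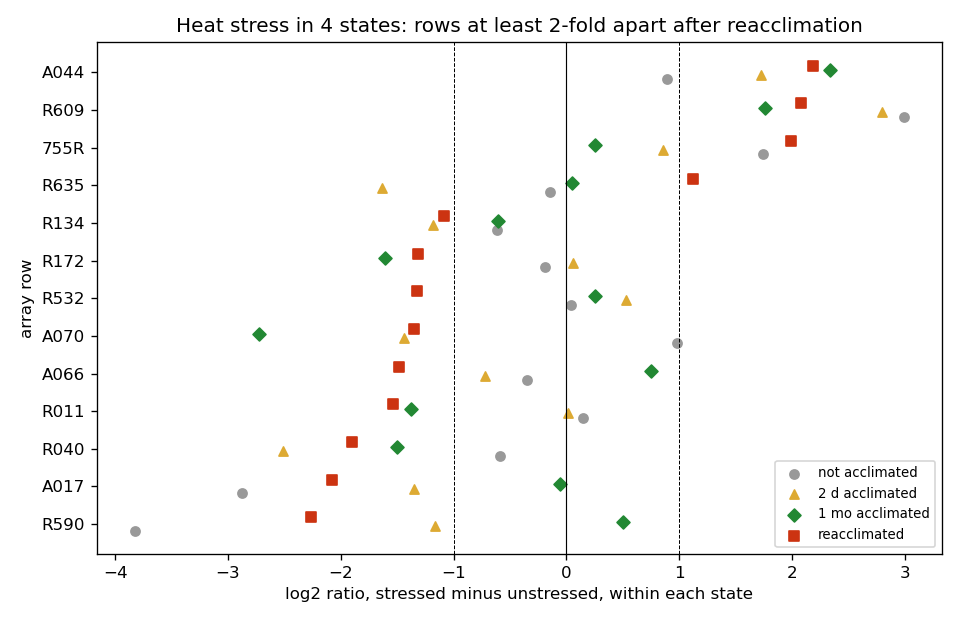
Stressed minus unstressed log2 difference within each of 4 states for the 13 rows at least 2-fold apart after reacclimation (red squares), 1 value per state, with dashed lines at 2-fold. A044, R609 and 755R lie above 0 in all 4 states (in scaled intensity A044 and 755R do not without acclimation), and R635 at 1.13 after reacclimation faces -1.63 after 2 d acclimation (0.41 and 0.79 in scaled intensity, with the same sign).

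Of the 9 lower rows, 3 were below 0 in all 4 states, namely A017, R040 and R134. Among all 87 rows, 20 had the same sign in all 4 states. That count holds both directions, so it is not the share of rows below 0. After centring A017 was at 0.06 after 1 mo acclimation. Row R040 stood at -0.59 in stressed rats without acclimation, went from 0.91 to -1.61 with 2 d acclimation and from 0.69 to -0.81 with 1 mo acclimation, beside 0.42 to -1.48 after reacclimation. Its stressed ratio was thus below the control in all 4 states, by the least without acclimation. Row A017 stood at 1.76 in unstressed reacclimated rats, above its unstressed ratios of 0.52 with 2 d and 0.01 with 1 mo acclimation. Its differences in the other states were -2.87, -1.35 and -0.05. The first rests on a stressed value that was 1 of the 6 read as a floor.

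Other lower rows varied in sign between states. Row R532 was lower after reacclimation (-1.32), also with groups centred (-1.21) and in scaled intensity (-2.49). Its size in the other states depended on the scaling. With groups centred it was at 0.10, 1.02 and 0.37. Scaled intensity gave 2.08 without acclimation and 1.34 after 1 mo, with no value after 2 d. In the log2 table without centring R532 was slightly above 0 in the other 3 states (0.04, 0.53 and 0.26). The difference of R532 from their mean was -1.60 ± 0.66 (SE, interval -3.20 to 0.01, limma unadjusted p = 0.0508, adjusted p = 0.983). Row A066 had -0.35, -0.72 and 0.75 in the other states against -1.49 after reacclimation, a departure of -1.38 ± 0.81 (SE, limma adjusted p = 0.983). Row R011 had 0.15, 0.01 and -1.38 against -1.54, so that only the 1 mo acclimated state was near it. Row A070 had 0.98, -1.44 and -2.72 against -1.35.

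At 2-fold, the overlap with the other states was partial. Of the 4 higher rows, 2 were also higher after 2 d (A044 and R609), which had 8 higher rows in all. The same 2 rows were among the 7 higher after 1 mo. Without acclimation 755R and R609 were among the 5 higher rows. With groups centred 755R was also shared with the 2 d state. Of the 9 lower rows, 5 were lower after 2 d (55.6% of the reacclimated and 17.2% of the 2 d list), a state in which 33.3% of all 87 rows were lower. With groups centred 1 lower row, R040, was shared with the 2 d state. After 1 mo 4 of the 9 were lower (44.4% and 23.5% of the lists, beside 19.5% of all rows), also 4 with groups centred. Without acclimation 2 were (22.2% of both lists, beside 10.3%). Those 2, A017 and R590, are among the 6 rows with a stressed value without acclimation that was read as a floor. In scaled intensity R590 rose on stress after reacclimation (0.35). Over all 87 rows the difference had the same sign as after reacclimation in 49 rows after 2 d, 45 after 1 mo and 47 without acclimation. The correlation across rows was r = 0.364, 0.242 and 0.281 in that order (rho 0.213, 0.133 and 0.0956), and r = 0.538 between the 2 d and the 1 mo state. These are descriptions over rows that share samples and scaling.

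Rows with a shared response in both acclimated states were then followed into the reacclimated one. They were picked from the data and are described without a test. Stress left 9 rows at least 2-fold lower after both 2 d and 1 mo acclimation. With groups centred 4 of them were (R040, A014, R242 and S62R). After reacclimation 2 of the 9 (R040 and A070) were lower by 2-fold, beside 9 of all 87 rows (10.3%). The other 7 lay between -0.71 and 0.69. Rows picked as extremes of 2 states tend to show smaller differences in any further state. Row A014 went from 0.69 to -0.98 after 2 d, and from 1.31 to -1.80 after 1 mo. In reacclimated rats A014 stood at 1.74 before and 1.40 after stress, with intensities of 4973 and 4930. In scaled intensity the differences of A014 were -1.58 after 2 d, -3.87 after 1 mo and -0.38 after reacclimation. Row R242 had differences of -2.26 and -1.82 in the acclimated states and of -0.11 after reacclimation. Row R437, which is not among these 4, had -1.25 and -2.32, against 0.23. For R437 the departure from the mean of all 3 other states was 1.70 ± 0.82 (SE, interval -0.30 to 3.70, limma adjusted p = 0.983).

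**Figure D5:**
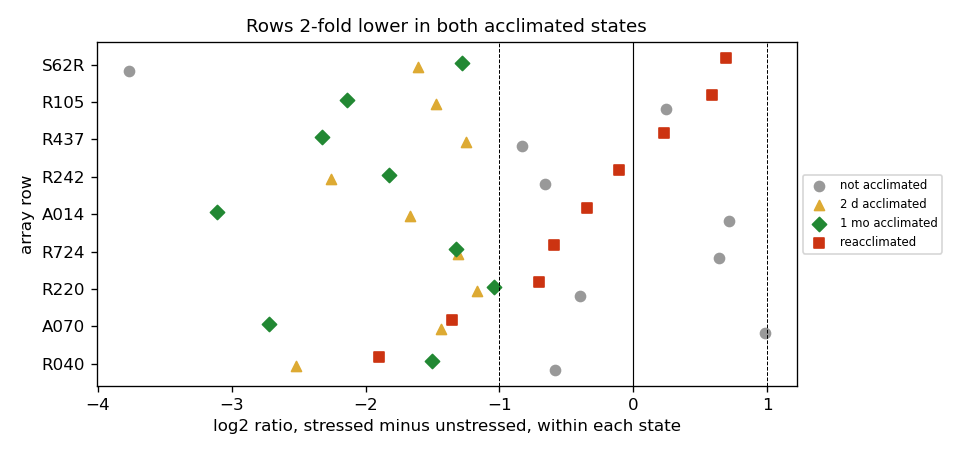
Stressed minus unstressed log2 difference in each of 4 states for the 9 rows at least 2-fold lower in both acclimated states (4 of them with groups centred), 1 value per state. After reacclimation (red squares) R040 and A070 lie below the dashed 2-fold line, beside 9 of all 87 rows (10.3%). The other 7 lie between -0.71 and 0.69.

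In the other direction, 6 rows were at least 2-fold higher on stress in both acclimated states, and the same 6 and 1 more (R520) with groups centred. After reacclimation A044 and R609 were so too, beside 4 of all 87 rows (4.60%). The other 4 (A022, R516, R087 and R523) lay between -0.29 and 0.52. Row A022 went from -0.55 to 0.69 after 2 d and from -0.30 to 1.71 after 1 mo. In reacclimated rats A022 was at 2.20 before stress and 2.16 after it, with intensities of 13606 and 14402, and it had stood at 2.20 in deacclimated rats. Row R516 followed the same order, from -0.27 to 1.33 after 2 d and from -0.50 to 1.07 after 1 mo, against 1.78 and 1.59 after reacclimation and 1.56 after deacclimation. Unstressed reacclimated rats thus had ratios of A022 and R516 at or above those of either stressed acclimated group. With groups centred this held for A022 but not for R516 (1.37 against 1.60 after 2 d acclimation and stress), and likewise in scaled intensity (0.84 against 1.00 for R516). In scaled intensity stress changed A022 by 1.60 after 2 d, 2.14 after 1 mo and -0.28 after reacclimation, and R516 by 2.01, 1.38 and -0.07. The control value of A022 is listed at -3.32, which moves its ratios to the control together and not its differences within the acclimated and reacclimated states. Its difference without acclimation is left uncertain.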

How the data were processed

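Of 9 groups with 1 sample each, 2 form the comparison and 6 others give heat stress in 3 further states. The main table was deposited as log2 values, in which treatment is divided by control after geometric means were formed, per the labels. The second deposited table holds values on a linear intensity scale. Not given in the sources used here are the normalization, any background correction and the reason for choosing these 87 rows. The number of arrays limits the precision.

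Differences between log2 ratios were taken per row with the control as 0. Intensities above 0 were put on the log2 scale and scaled so that each sample had a median of 0 over 59 rows with positive values throughout. The response after reacclimation was compared with 3 other states by limma (lmFit, eBayes, Benjamini-Hochberg at 0.05) on 4 differences per row. The procedure was also run on simulated data whose shifts were far larger than any departure found here. That run therefore says nothing about differences of 2-fold. Control values away from 0 (9 rows) and values below -2.5 that lay under a gap of at least 0.9 in their column (6 rows in the heat-stressed group without acclimation, 1 in the 2 d acclimated group) were read as a floor, 15 rows in all, 1 row holding both kinds.

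Named rows were those at 2-fold, the 10 largest differences in each direction, the 5 departing most from the other states in each direction, and the 3 most like the top row. Rows outside that rule were chosen after their values were seen. The members, comparisons and lists were chosen with earlier results of these data known. Software was limma 3.58.1 in R 4.3.3, with pandas 2.3.3, numpy 2.4.6 and matplotlib 3.10.9 in Python 3.11.15.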

Additional observations from a re-analysis of the deposited data

Results flagged for a closer look

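Row R635 exceeded 2-fold upward on heat stress after reacclimation (1.13) and at least 2-fold lower on heat stress after 2 d acclimation (-1.63). In the log2 table it was the only one of the 13 called rows with a 2-fold difference in the opposite direction in another state. With groups centred A070 and R532 were so too, and in scaled intensity the rows were 755R, A066 and R532, without R635. Between the reacclimated and the 2 d acclimated state alone the difference of R635 was not tested, as each has 1 value. Against the mean of the other 3 states R635 departed by 1.70 ± 0.88 (SE, limma adjusted p = 0.983), and its scaled intensity differed by 0.41 after reacclimation and by 0.79 after 2 d acclimation, the same direction.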

How the results depend on the processing

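The counts of 4 higher and 9 lower rows became 14 and 8 in scaled intensity, 13 and 22 at a 1.5-fold threshold, and 3 and 3 at a 3-fold threshold. Without the 25% of rows with the lowest intensity 3 rows were lower, and 4 were lower by 2-fold in both tables, which was tried only after seeing the data. Counts stayed within 1.5 times when groups were centred, and without rows at or below 0 or at the floor. In scaled intensity R011 (1.69) and R590 (0.35) turned sign, and the cause was not tested. The limma comparison with the other states called 0 rows in all 8 alternatives. The lowest adjusted p there was 0.286, without the state that was not acclimated, where 12 rows had an unadjusted p under 0.05, and the highest of the lowest adjusted p-values was 0.986. No paired analysis was possible because each group has 1 sample. Of the 9 lower rows 6 had low mean signal over the series, and its part in their differences was not tested.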

Other observations

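Some rows differed more in the intensities than in the log2 ratios. Row S62R went from an intensity of 209.3 in unstressed to 2225 in stressed reacclimated rats, a scaled log2 difference of 3.04, while its log2 ratios differed by 0.69. Row S11R went from 353.7 to 3331 (2.87, against 0.64). Rows R523 (2.66, against 0.52) and R045 (2.01, against 0.21), chosen after their values were seen, also started from intensities of 256.5 and 535.8. In the other direction, and likewise chosen after their values were seen, A016 went from 3950 to 810.9 (-2.65, against -0.80) and A038 from 1331 to 283.1 (-2.60, against -0.88).

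The 5 rows that departed furthest upward from the mean of the other 3 states were S62R (2.91), R198 (2.22), S11R (1.91), R105 (1.71) and R635 (1.70). Of these, 3 (S62R, R198 and S11R) are among the 6 rows with a stressed value without acclimation that was read as a floor. For R105 the control is listed at -6.64 and not at 0, so its difference without acclimation is uncertain. In scaled intensity the difference of R105 after reacclimation was -0.45, against 0.59 in the log2 ratios. Set against the mean of only the 2 acclimated states, S62R departed by 2.13, R198 by 1.18, S11R by 0.89, R105 by 2.39 and R635 by 1.92. Furthest downward were R532 (-1.60), A066 (-1.38), R516 (-1.32), R011 (-1.13) and A073 (-1.08). None of these 10 departures passed limma's adjusted threshold (adjusted p = 0.983 for each).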
